A study of Mus musculus with 7 samples.

Results

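Mitochondrial ribosomal proteins are the nuclear-encoded proteins that, with 2 mitochondrially encoded rRNAs, build the ribosome of the mitochondrion. The genes described here are the GENCODE vM21 protein-coding mouse genes whose symbol is Mrpl or Mrps followed by a number. They were 78 of the 48795 gene identifiers in the count table, and all 78 passed the filter on low counts that left 11618 genes to test. The rule on symbols used no measured value, but the group was chosen with earlier results of these data known. The genes were followed in light zone germinal centre B cells, sorted from mouse spleens collected 10 days after intravenous injection of sheep red blood cells, an antigen that raises germinal centres without adjuvant. Bulk RNA-seq of polyadenylated RNA gave 3 libraries labelled MIZ1KO, with MizFF in their titles, and 4 labelled Control, with eYFP in theirs. The protein MIZ1, a transcription factor of the zinc finger type, is the product of Zbtb17. The allele that was altered, the Cre and the promoter that drives it, and the strain and age of the mice are not stated in the labels used here, nor whether each library came from a separate mouse. The p-values below therefore measure the spread between these libraries, some of which may be technical. In bulk RNA, fewer cells of a type and less RNA per cell cannot be told apart.

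The mitochondrial ribosome translates the handful of mRNAs that the mitochondrial genome encodes, all for subunits of the respiratory chain and ATP synthase. Its small subunit binds the mRNA and decodes it. Its large subunit joins the amino acids and sits at the inner membrane, into which the new proteins are inserted. Some of its proteins descend from the bacterial ribosome and others are found only in mitochondria. Germinal centre B cells divide fast in the dark zone and are selected by T cells in the light zone, and respiratory activity is part of their metabolism. Because every subunit protein is made from a nuclear gene, the supply of these proteins is set outside the organelle, in part through promoters bound by NRF1 and by ETS-family factors such as GABPA.

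The 250 bases before the start of transcription are shown for 4 genes that the results return to, all chosen after their values were seen: Mrps15, which passed the test, Mrpl2 and Mrpl12, which were among the members with the highest fitted changes, and Mrps18c, which had the lowest. The sequences are RefSeq's for GRCm38.p6, on the + strand, at chr4:126046678-126046927 for Mrps15, chr17:46645979-46646228 for Mrpl2, chr11:120484387-120484636 for Mrpl12 and chr5:100798509-100798758 for Mrps18c. Capitals mark matches, on either strand, to 3 motifs: GCGCA, any base, then GCGC (NRF1), CCGGAAG (ETS family) and CACGTG (the E-box bound by MYC and related factors).
Mrps15: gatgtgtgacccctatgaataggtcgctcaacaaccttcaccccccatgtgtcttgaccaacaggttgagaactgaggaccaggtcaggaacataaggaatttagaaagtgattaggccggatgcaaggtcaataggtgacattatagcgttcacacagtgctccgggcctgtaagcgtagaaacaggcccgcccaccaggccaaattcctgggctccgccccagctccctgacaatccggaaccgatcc
Mrpl2: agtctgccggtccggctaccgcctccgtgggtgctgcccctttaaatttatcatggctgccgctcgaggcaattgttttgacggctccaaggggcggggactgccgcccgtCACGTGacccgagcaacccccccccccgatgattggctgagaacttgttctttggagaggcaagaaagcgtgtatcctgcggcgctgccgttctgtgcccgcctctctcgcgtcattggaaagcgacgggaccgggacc
Mrpl12: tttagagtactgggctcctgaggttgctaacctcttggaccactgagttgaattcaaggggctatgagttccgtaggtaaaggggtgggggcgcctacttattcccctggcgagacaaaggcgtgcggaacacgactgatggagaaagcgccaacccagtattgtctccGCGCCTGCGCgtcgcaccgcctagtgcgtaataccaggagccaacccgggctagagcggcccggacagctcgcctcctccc
Mrps18c: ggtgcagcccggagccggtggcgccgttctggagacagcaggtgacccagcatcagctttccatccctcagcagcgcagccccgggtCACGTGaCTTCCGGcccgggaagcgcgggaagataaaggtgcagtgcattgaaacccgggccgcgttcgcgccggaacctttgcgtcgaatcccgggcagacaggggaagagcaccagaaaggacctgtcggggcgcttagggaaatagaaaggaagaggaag
The window of Mrps15 held no match to the 3 motifs. That of Mrpl2 held an E-box starting 139 bases before the start. Mrpl12 held an NRF1 match from 81 bases before the start. Mrps18c held an E-box and an ETS match, from 163 and 156 bases before a RefSeq start that lies 132 bp from the start of the GENCODE gene.

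RefSeq gave a promoter for 69 of the 78 genes. The 16522 promoters they are set against include those of genes that did not pass the filter on low counts, which all 78 passed. Median GC content of the windows was 58.4% for the 69 and 56.0% for all, and its part in the motif shares was not tested. The NRF1 motif was found in 10 of the 69 (14.5%), against 911 of all 16522 promoters (5.51%). The ETS motif was found in 16 of the 69 (23.2%), against 1575 (9.53%) of all. Both were thus more frequent before mitochondrial ribosomal protein genes than before genes at large. The E-box was not, with 5 of the 69 (7.25%) against 1122 (6.79%), nor was CCAAT, searched on both strands, with 25 (36.2%) against 5958 (36.1%). Median log2 fold changes between the libraries labelled MIZ1KO and Control, described below, were 0.13 with and 0.15 without the NRF1 motif, and 0.17 with and 0.14 without the ETS motif. The 5 genes with an E-box had a median of 0.39, with 3 of the 5 above 0, and the 64 without it 0.14. The RefSeq start lay 2496 bp from the GENCODE start in Mrpl36, which is among these 5. The distance was 17016 bp in Mrpl33, 7979 bp in Mrps24, 3185 bp in Mrpl35 and at most 850 bp in the others. These matches describe letters in a window and not bound sites.

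Totals ran from 6896673 to 9482453 counts per library, of which rRNA took 46.4 to 56.1%, and 3087992 to 5085019 counts lay outside rRNA. Counted as rRNA throughout were the genes annotated as rRNA or mitochondrial rRNA, and the gene Gm26917. Zbtb17, the targeted gene, stood at 5.16, 3.70 and 4.50 CPM in the libraries labelled MIZ1KO and at 3.15, 3.42, 3.15 and 7.02 CPM in Control. Levels are given throughout as CPM, each count being divided by the TMM-scaled size of its library. Zbtb17 was thus not lower in MIZ1KO, and since the labels do not name the deleted part, a count over the whole gene cannot check the genotype: each direction below rests on the labels. Summed germinal centre B cell markers (9 genes) were 2277 to 2595 CPM in MIZ1KO and 2000 to 2841 CPM in Control, and no germinal centre marker was at 0. Of these, Cd79a rose in MIZ1KO (0.86 ± 0.22, adjusted p = 0.0333), and Fas, not called, was lower in every MIZ1KO library (-0.57 ± 0.24, adjusted p = 0.16). DESeq2 called Cd79a and Mef2b higher. Light zone markers (4 genes) summed to 613 to 699 CPM against 540 to 850 CPM, and dark zone markers (3 genes) to 251 to 309 CPM against 272 to 290 CPM. Summed T cell markers (6 genes, led by Cd3e) were low but did not overlap, at 1.72 to 16.9 CPM against 0.131 to 1.56 CPM. None passed the filter for edgeR, and DESeq2 called Cd3e higher. The 5 myeloid markers summed to 5.91 to 23.0 CPM against 7.12 to 12.1 CPM, with 0 called by edgeR and Lyz2 higher by DESeq2. The 3 myeloid markers tested by edgeR had log2 fold changes of 0.097 to 1.68. Plasma cell markers (5 genes) summed to 177 to 255 CPM against 205 to 377 CPM, with 0 called by edgeR and Jchain lower by DESeq2. Erythroid markers (4 genes) summed to 31.4 to 324 CPM in MIZ1KO against 62.9 to 257 CPM in Control, with 0 called. Of the 3 stromal markers with a row Col1a1 and Pdpn were at 0 in every library. The third, Cr2, which follicular dendritic cells and B cells both express, was at 163 to 236 CPM against 197 to 223 CPM. Nuclear RNA, taken as the share of Malat1, Xist and unconfirmed transcript models (TEC) among counts outside rRNA, was 1.19, 1.48 and 2.0% in MIZ1KO and 2.48, 4.07, 6.23 and 5.41% in Control. This share was not split into its components, and the sex of the mice was not among the labels used. The part of T cell, myeloid, plasma cell and erythroid RNA in the results was not tested.

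Summed over the group, the messages for the mitochondrial ribosome differed between the libraries labelled MIZ1KO and Control by less than the spread between libraries, and 1 gene rose. The 78 genes together took 0.314, 0.383 and 0.319% of the counts outside rRNA in MIZ1KO (mean 0.339 ± 0.0384%, SD of 3 libraries) and 0.402, 0.337, 0.245 and 0.301% in Control (mean 0.321 ± 0.0658%, SD of 4 libraries). The Control libraries spanned the MIZ1KO values on both sides. Of the 78 genes, 1 rose in MIZ1KO at an adjusted p under 0.05 in edgeR's quasi-likelihood test (Mrps15), beside 1.9% of all genes tested that rose, and 0 fell, beside 4.05%. At an unadjusted p under 0.05, 10 were higher (12.8%, against 9.92% of all genes) and 3 lower (3.85%, against 14.7%). DESeq2 called 4 higher, Mrpl2, Mrpl40, Mrps11 and Mrps15, where it called 3.02% of its genes, and 0 lower, where it called 4.75%. In 6 genes (7.69%, against 8.74% of all) every MIZ1KO library lay above every Control library, and in 2 (2.56%, against 10.8%) below.

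The median log2 fold change of the 78 genes was 0.15, with quartiles at -0.16 and 0.40, and 51 of the 78 (65.4%) lay above 0, whereas with the nuclear RNA share as a covariate the median was -0.57 and 14 lay above 0. Over all genes tested the median was -0.03 and 47.7% lay above 0, and over the 9812 protein-coding genes it was 0.03, with 52.5% above 0. The nuclear RNA share did not overlap between the groups, so it and the genotype cannot be told apart in these 7 libraries. The standard error of a member's log2 fold change ran from 0.21 to 0.53, with a median of 0.32, on counts of 10 to 936 per gene and library.

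**Figure D1:**
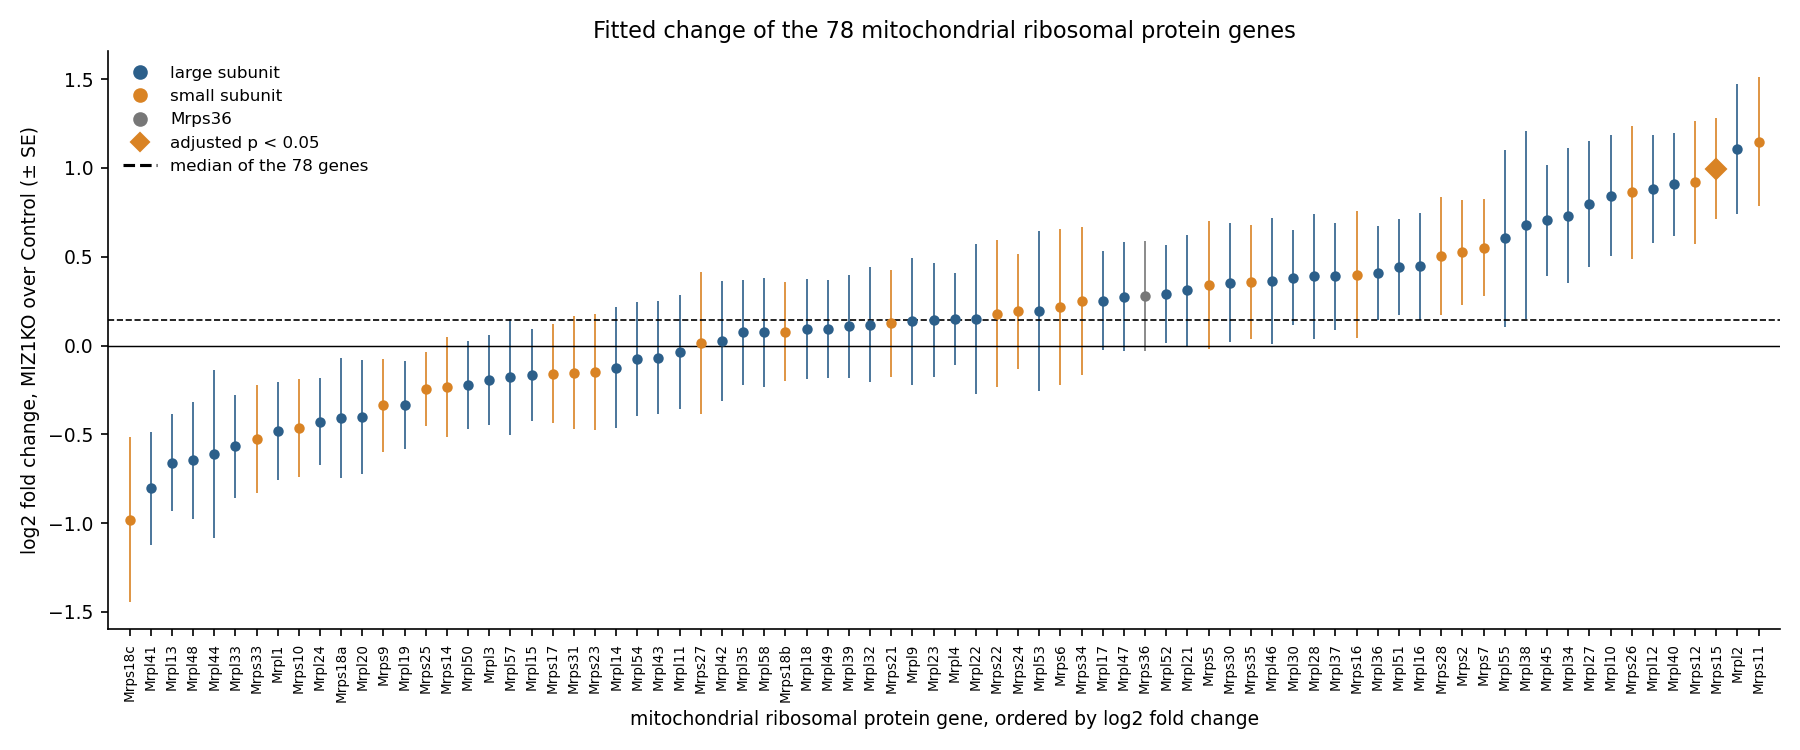
Log2 fold change of MIZ1KO over Control (y axis, bars are the standard error) for each of the 78 genes, ordered by value (x axis) and coloured by subunit, with the median of 0.15 as a dashed line. The values run from -0.98 (Mrps18c) to 1.15 (Mrps11), 51 are above 0 (14 with the nuclear RNA share as a covariate), and only Mrps15, drawn as a diamond, passed the test.

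Mrps15 encodes a small-subunit protein of bacterial descent that binds the small-subunit rRNA. The gene (ENSMUSG00000028861) lies on chromosome 4 from 126046925 to 126055532 on the + strand (GRCm38), overlaps no other annotated gene and has no head-to-head neighbour. It stood at 28.0, 27.1 and 22.4 CPM in MIZ1KO and at 18.5, 10.1, 9.45 and 13.7 CPM in Control. Each MIZ1KO library was above the highest Control library. The means were 25.8 ± 3.04 CPM over the 3 MIZ1KO libraries and 12.9 ± 4.15 CPM over the 4 Control libraries (mean ± SD), a log2 fold change of 0.99 ± 0.28 (SE) with an adjusted p of 0.0472. The call was lost in 11 of 17 alternatives, with an adjusted p between 0.0120 and 0.893 over all of them: it held without Control replicate 1 and not when any other library was left out. With the nuclear RNA share as a covariate its log2 fold change was 0.20. Mrps15 lies 15.4 Mb from Zbtb17 on the same chromosome. The other members there had log2 fold changes of 0.39 (Mrpl37, 34.4 Mb away), -0.40 (Mrpl20, 14.3 Mb) and -0.22 (Mrpl50, 91.9 Mb), named for their position after their values were seen.

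Among the other small-subunit genes, Mrps11 had the largest fitted change of all 78. It encodes a protein of the subunit's platform, and the gene (ENSMUSG00000030611) lies on chromosome 7 from 78783119 to 78792989. It stood at 11.9, 12.6 and 9.17 CPM in MIZ1KO and at 7.21, 4.51, 3.81 and 4.91 CPM in Control, with no overlap. The log2 fold change was 1.15 ± 0.36 (SE), and the adjusted p of 0.0674 missed the threshold. Mrps11 overlaps Mrpl46, read from the other strand, by 412 bp at their starts, and no label says whether the counting used strand, so reads of the 2 genes may be shared. Mrpl46 itself, at 9.99, 16.0 and 16.1 CPM against 17.3, 7.93, 6.82 and 11.0 CPM, had a log2 fold change of 0.36 ± 0.35 (adjusted p = 0.566) and overlapping groups, and was named after its values were seen.

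Mrps12 encodes the decoding-site protein in which bacterial mutations alter accuracy. It stood at 14.2, 19.3 and 21.1 CPM in MIZ1KO and at 15.5, 5.44, 6.43 and 10.4 CPM in Control, where replicate 1 lay within the MIZ1KO range (log2 fold change 0.92 ± 0.35, adjusted p = 0.113). Mrps5, which lies near the path of the mRNA into the subunit, had a log2 fold change of 0.34 ± 0.36. Mrps26, a protein found only in mitochondria, was at 20.6, 13.6 and 21.9 CPM against 18.1, 6.07, 11.4 and 5.41 CPM (0.86 ± 0.38, adjusted p = 0.165). In both Mrps12 and Mrps26, Control replicate 1 was the highest Control library by a clear margin. For the 26 small-subunit genes the median fitted change was 0.19 (log2), 17 lay above 0 and 1 was called. Their other extreme was Mrps18c.

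In mammals 3 paralogous genes encode proteins related to 1 bacterial small-subunit protein, and they occupy different places. The product of Mrps18c holds the ancestral site, that of Mrps18b sits elsewhere in the small subunit, and that of Mrps18a is part of the large subunit. Mrps18c stood at 4.41, 11.6 and 3.86 CPM in MIZ1KO and at 24.9, 11.8, 6.17 and 11.5 CPM in Control, with overlapping groups and the lowest log2 fold change of the 78 (-0.98 ± 0.47, adjusted p = 0.201). Mrps18a was at 13.9, 15.2 and 17.2 CPM against 31.9, 22.2, 18.2 and 9.82 CPM (-0.41 ± 0.34, adjusted p = 0.491). Mrps18b was at 19.9, 19.5 and 16.7 CPM against 23.7, 19.6, 14.8 and 13.5 CPM (0.08 ± 0.28, adjusted p = 0.9). None of the 3 passed the test, and the Control libraries of each spanned a wider range than the MIZ1KO libraries.

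The large subunit was represented by 51 genes, Mrps18a and Mrps30 included. Their median log2 fold change was 0.14, with 33 above 0 and 0 called by edgeR (6 higher and 2 lower at an unadjusted p under 0.05, and 2, Mrpl2 and Mrpl40, higher by DESeq2). The ratio of summed large-subunit to small-subunit counts was 2.26 ± 0.183 (SD, n = 3) where the label was MIZ1KO, against 2.29 ± 0.146 (SD, n = 4) in Control, and each group's range held the other's mean.

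Mrpl2 encodes a protein close to the site where peptide bonds form. The gene (ENSMUSG00000002767) lies on chromosome 17 from 46646229 to 46650139, with the E-box shown above in its promoter. It stood at 11.9, 8.99 and 9.81 CPM in MIZ1KO and at 5.12, 5.44, 4.99 and 3.71 CPM in Control. All 3 MIZ1KO libraries were above the 4 Control libraries, which lay close together (4.81 ± 0.761 CPM, SD, n = 4). The log2 fold change was 1.11 ± 0.37 (SE) with an adjusted p of 0.0767. A lincRNA, Gm26904, overlaps the gene on the same strand, and Klc4, a kinesin light chain gene, starts beside it on the other strand.

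The stalk recruits elongation factors to the large subunit. Mrpl12, its flexible arm, stood at 37.8, 39.2 and 51.8 CPM in MIZ1KO and at 36.9, 27.4, 12.3 and 16.7 CPM in Control (log2 fold change 0.88 ± 0.30, adjusted p = 0.0861, and -0.045 with the nuclear RNA share as a covariate). The groups did not overlap, with Control replicate 1 just under the lowest MIZ1KO library. Mrpl10, the base that holds Mrpl12, had 13.9, 31.7 and 19.9 CPM against 12.1, 19.1, 9.71 and 8.82 CPM (0.84 ± 0.34, adjusted p = 0.134). Mrpl11, the third stalk gene, had a log2 fold change of -0.04 ± 0.32, and none of the 3 passed the test. Mrpl10 and Mrpl11 were named after their values were seen.

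The central protuberance faces the small subunit and contacts the tRNAs. Of the 6 members assigned to it here 5 lay above 0, beside 65.4% of the 78 genes and 52.5% of protein-coding genes. Their median was 0.52, and 0 were called by edgeR. Mrpl40 was at 14.9, 25.8 and 22.5 CPM in MIZ1KO and at 12.1, 11.2, 9.58 and 11.9 CPM in Control, with no overlap (0.91 ± 0.29, adjusted p = 0.0684). Mrpl27 followed, with 0.80 ± 0.35 (adjusted p = 0.174), and Mrpl38, with 0.68 ± 0.53 (adjusted p = 0.457), both named after their values were seen. Mrpl48 went the other way, at 13.8, 20.4 and 17.9 CPM against 44.1, 28.6, 14.2 and 22.0 CPM (-0.65 ± 0.33, adjusted p = 0.235). Its groups overlapped, since Control replicate 3 lay among the MIZ1KO libraries.

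Around the exit of the peptide tunnel 8 genes had a median of 0.15. Mrpl45, which tethers the ribosome to the inner membrane, was nearly even in MIZ1KO, at 19.3, 19.6 and 19.9 CPM. In Control it was at 13.8, 18.2, 8.79 and 8.22 CPM (0.70 ± 0.31, adjusted p = 0.17), so that the groups did not overlap but Control replicate 2 came near. Mrpl24 was one of the 2 genes lower in every MIZ1KO library, at 17.7, 27.6 and 21.2 CPM against 34.6, 28.8, 28.2 and 28.2 CPM (-0.43 ± 0.25, adjusted p = 0.294). The other was the small-subunit gene Mrps9, at 18.3, 16.3 and 12.7 CPM against 19.1, 21.9, 20.3 and 19.0 CPM (-0.34 ± 0.26, adjusted p = 0.46). These 3 genes were named after their values were seen. Mrpl44, whose fold resembles that of RNase III, had 5.16, 4.40 and 7.72 CPM against 15.2, 10.7, 4.72 and 4.21 CPM (-0.61 ± 0.47, adjusted p = 0.457).

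Other large-subunit genes with negative fitted changes were also uneven among the Control libraries. Mrpl41 was at 14.2, 30.3 and 16.1 CPM in MIZ1KO and at 47.6, 44.3, 20.7 and 30.4 CPM in Control (-0.80 ± 0.32, adjusted p = 0.131). Mrpl13 was at 22.6, 34.1 and 18.5 CPM against 52.6, 45.4, 31.1 and 31.3 CPM (-0.66 ± 0.27, adjusted p = 0.145). Mrpl33 was at 33.5, 34.7 and 20.6 CPM against 52.7, 56.8, 22.6 and 45.3 CPM (-0.57 ± 0.29, adjusted p = 0.236). In all 3 genes the Control libraries of replicates 1 and 2 were the highest of the 7, Control replicate 3 lay below the highest MIZ1KO library, and none passed the test. Mrpl13 overlaps Mtbp, on the other strand, so reads of these genes too may be shared. Mtbp, named after its values were seen, had -0.63 ± 0.30 (adjusted p = 0.198).

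**Figure D2:**
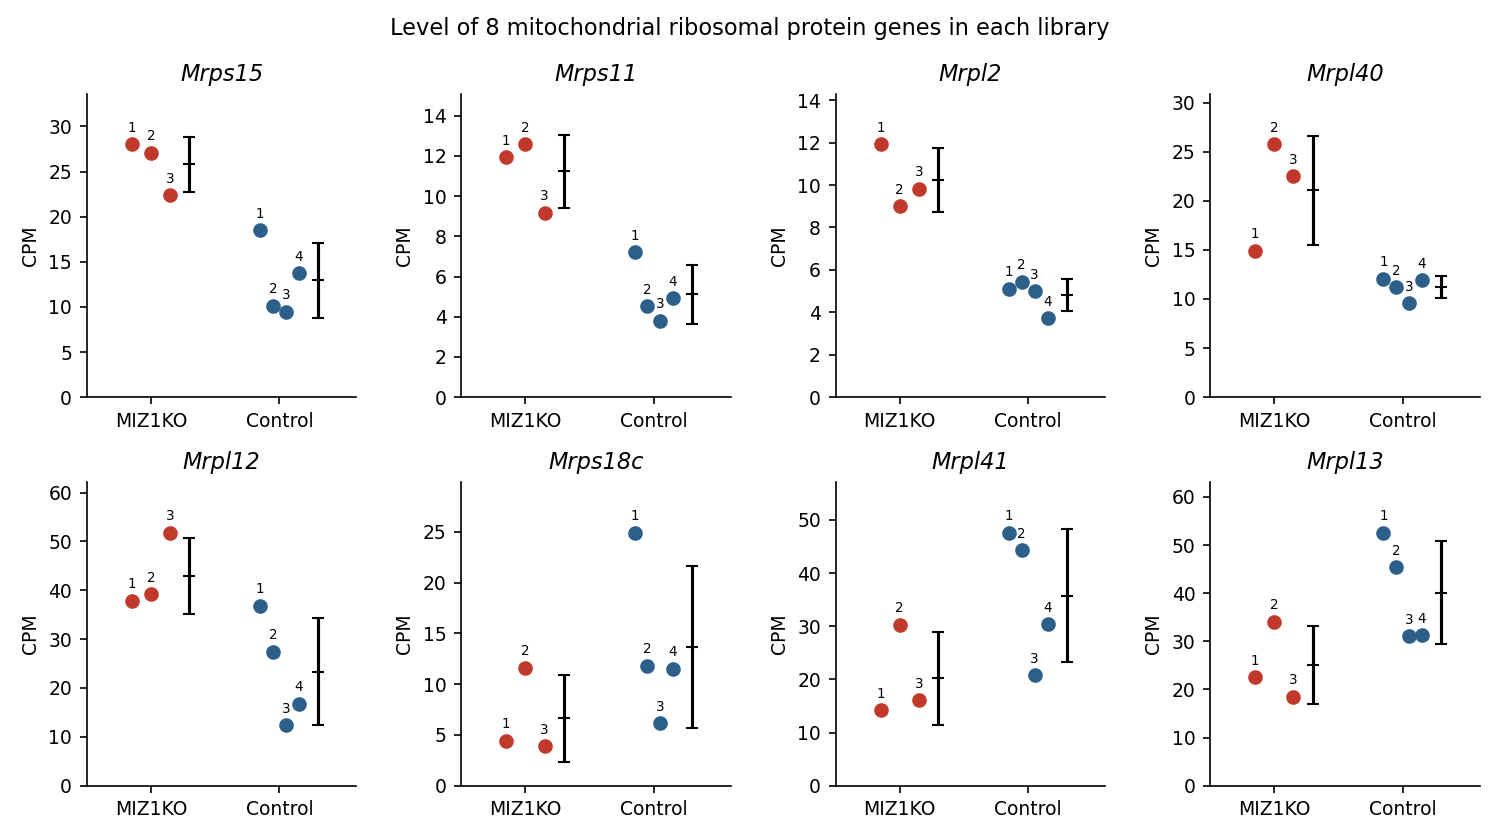
CPM (y axis, from 0) of 8 genes in each library of the 2 groups (x axis), with replicate numbers beside the points and the mean ± SD to their right. Mrps15 was the gene that passed the test, at 25.8 ± 3.04 against 12.9 ± 4.15 CPM, and Mrps11, Mrpl2, Mrpl40 and Mrpl12 show no overlap either, while the groups overlap in Mrps18c, Mrpl41 and Mrpl13.

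Some members do not do what their symbol says. Mrps30, despite its name a protein of the large subunit, was at 13.0, 16.4 and 15.9 CPM in MIZ1KO and at 19.8, 9.33, 8.92 and 9.22 CPM in Control. Control replicate 1 was above all others and the other 3 were the lowest (0.35 ± 0.33, adjusted p = 0.554). Mrps36, a subunit of the oxoglutarate dehydrogenase complex rather than of the ribosome, was at 23.9, 34.9 and 23.6 CPM against 34.0, 28.3, 14.8 and 14.7 CPM (0.28 ± 0.31, adjusted p = 0.622). Mrpl58, a peptidyl-tRNA hydrolase built into the large subunit that frees stalled ribosomes, was at 17.9, 16.5 and 10.8 CPM against 19.8, 14.0, 14.3 and 10.3 CPM (0.07 ± 0.31, adjusted p = 0.914). Thus none of these genes was separated by group.

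Levels between genes were compared as CPM per kb of the principal transcript, averaged over the 7 libraries. The highest were Mrpl52 (91.2), Mrpl33 (79.6), Mrps21 (72.5), Mrpl18 (58.4) and Mrpl42 (38.1 CPM per kb), and the lowest Mrps5 (2.38), Mrps26 (3.24) and Mrps17 (3.48 CPM per kb), around a median of 11.8 CPM per kb. This order depends on the transcript chosen, the longest of a gene's best-ranked ones. It had 418, 478 and 488 bp in Mrpl52, Mrpl33 and Mrps21, and 4481, 4278 and 5061 bp in Mrps5, Mrps26 and Mrps17. Without scaling by length, mean levels ran from 4.94 to 71.2 CPM around a median of 18.3 CPM. Mrps17 was then at 16.6 CPM in MIZ1KO and 18.4 CPM in Control. Levels of genes whose products enter the ribosome thus spanned more than an order of magnitude. In Control, Mrpl52, Mrpl33 and Mrps21 lay within each other's spread, with 83.4 ± 36.8, 92.8 ± 32.0 and 70.1 ± 26.9 CPM per kb (SD, n = 4). In MIZ1KO they had 102 ± 4.2, 61.9 ± 16.4 and 75.6 ± 25.9 CPM per kb (SD, n = 3), so that Mrpl52 was above Mrpl33 by more than their spread. Mrpl18, related to a bacterial protein that binds an rRNA of the large subunit, was the most counted member before scaling by length, with 66.0, 93.5 and 61.1 CPM in MIZ1KO and 100.6, 86.2, 38.1 and 52.6 CPM in Control (0.09 ± 0.28, adjusted p = 0.878). None of these 5 genes passed the test. Their log2 fold changes were 0.29 ± 0.28 for Mrpl52, -0.57 ± 0.29 for Mrpl33, 0.13 ± 0.30 for Mrps21 and 0.02 ± 0.34 for Mrpl42, while with the nuclear RNA share as a covariate Mrpl52, Mrps21, Mrpl18 and Mrpl42 were at -0.77, -1.08, -1.07 and -1.29. Mrps17 had -0.16 ± 0.28.

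The 78 genes varied together across the Control libraries. The median deviation of a member from its mean over the 7 libraries was 0.53 (log2 CPM) in Control replicate 1 and -0.58 in Control replicate 3, with 0.14 and -0.17 in replicates 2 and 4, against 0.02, 0.25 and -0.03 in the libraries labelled MIZ1KO. Control replicate 1 held the highest value of 37 of the 78 genes and the lowest of 0, and Control replicate 3 the highest of 0 and the lowest of 40. Over all genes tested, replicate 1 was highest for 18.0% and lowest for 12.6%, and replicate 3 highest for 19.3% and lowest for 18.8%. The share of nuclear RNA in these Control libraries was 2.48% in replicate 1 and 6.23% in replicate 3, the lowest and highest of the group, and its part in this spread was not tested. Without Control replicate 1, edgeR called 7 members higher in MIZ1KO (Mrpl12, Mrpl27, Mrpl34, Mrps11, Mrps12, Mrps15 and Mrps26), beside 4.6% of all genes, and 0 lower. Leaving out any of the other 6 libraries gave 0 calls in either direction.

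**Figure D3:**
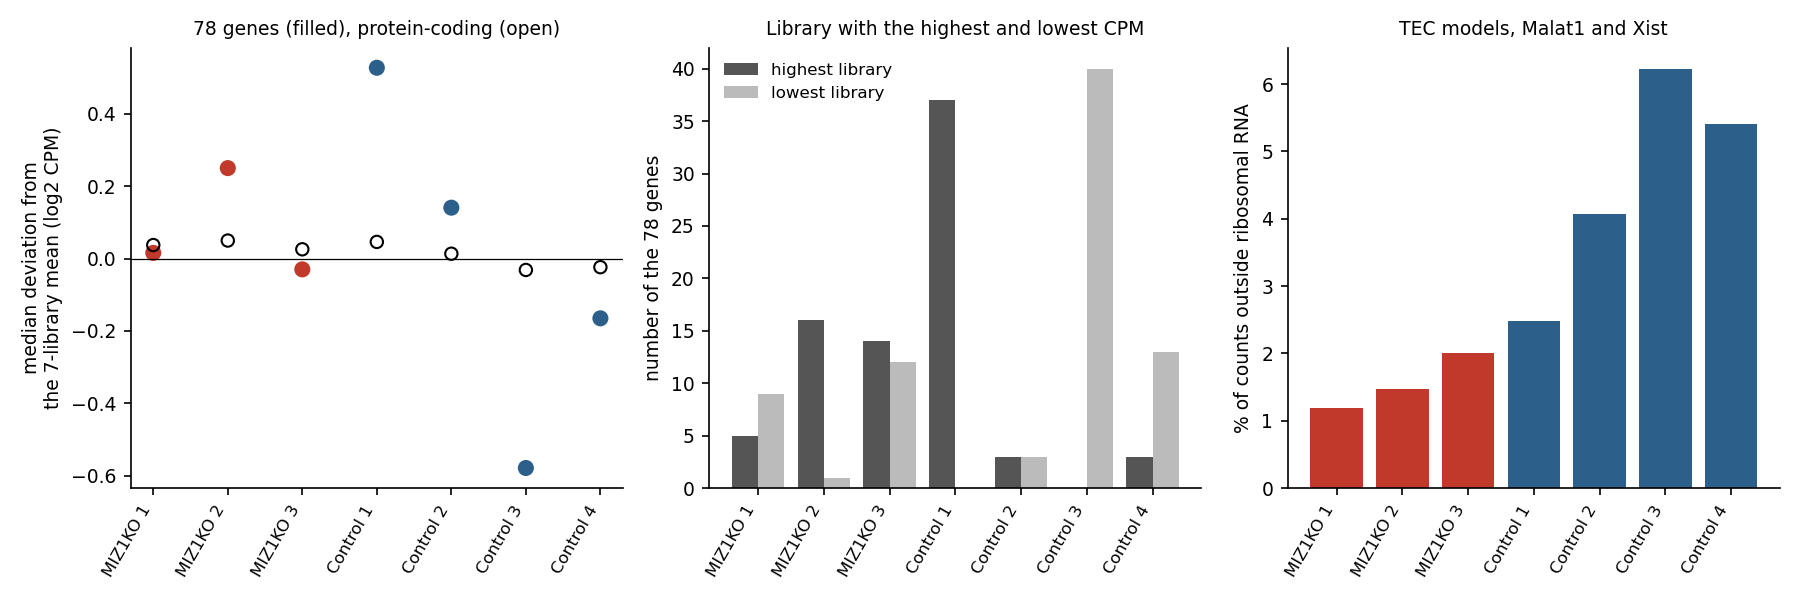
For each of the 7 libraries (x axis), left, the median deviation of the 78 genes (filled) and of protein-coding genes (open) from their mean over libraries in log2 CPM; middle, the number of the 78 genes that were highest or lowest there; right, the nuclear RNA share in percent. Control replicate 1 stands at 0.53 and replicate 3 at -0.58, with the MIZ1KO libraries between, and the nuclear RNA share is 1.19 to 2.0% in MIZ1KO and 2.48 to 6.23% in Control.

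The proteins of the mitochondrial ribosome that carry other names, 5 genes, showed a median of -0.01 (log2 fold change), and 0 were called by edgeR or DESeq2, nor had any an unadjusted p under 0.05. They include Dap3, a GTP-binding protein of the small subunit (24.9 ± 4.33 CPM over 3 MIZ1KO and 18.9 ± 3.67 CPM over 4 Control libraries, mean ± SD). Its log2 fold change was 0.39 ± 0.26 (adjusted p = 0.371). Chchd1 had -0.53 ± 0.40, Gadd45gip1 0.35 ± 0.35 and Ptcd3 -0.12 ± 0.24. Of 27 assembly and rRNA modification factors, 0 were called by edgeR or DESeq2, 1 was lower at an unadjusted p under 0.05, and the median was -0.07. The rRNA methyltransferase Nsun4 was at 7.31, 7.19 and 4.18 CPM against 13.8, 10.3, 16.4 and 8.22 CPM, with no overlap (-0.92 ± 0.37, adjusted p = 0.136), and its partner Mterf4 had -0.80 ± 0.39 (adjusted p = 0.216). Rpusd3, a pseudouridine synthase (1.28 ± 0.64, adjusted p = 0.228), and Mrm2, an rRNA methyltransferase (-1.10 ± 0.64, adjusted p = 0.3), were counted too sparsely for a narrow estimate, at no more than 25 and 28 counts in a library.

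Among 15 translation factors 1 rose and 0 fell, with a median of -0.07. The gene that rose was Tufm, the elongation factor that brings aminoacyl-tRNA to the mitochondrial ribosome. It stood at 44.4, 29.5 and 50.2 CPM in MIZ1KO and at 20.6, 21.2, 15.4 and 20.7 CPM in Control, with no overlap. The log2 fold change was 1.08 ± 0.25 (SE), with an adjusted p of 0.0212, which rose above 0.05 without MIZ1KO replicate 1 (0.118) or 3 (0.0796), without Control replicate 2 (0.0531) or 4 (0.0553), with the GC and length correction (0.0746), and with the nuclear RNA share as a covariate (0.338). Oxa1l, which inserts the new proteins into the inner membrane, was at 48.7, 38.3 and 58.9 CPM against 34.0, 27.7, 31.6 and 30.4 CPM (0.64 ± 0.22, adjusted p = 0.0861). Guf1 (-0.76 ± 0.34) and Gfm2 (-0.61 ± 0.30), translational GTPases, did not pass the test.

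Of 13 tested regulators of mitochondrial gene expression 1 rose and 0 fell, with a median of -0.10. Pprc1, a coactivator related to PGC1A that works with NRF1, was at 41.7, 31.6 and 45.5 CPM in MIZ1KO and at 16.7, 16.2, 21.4 and 17.6 CPM in Control, with no overlap. Its log2 fold change was 1.13 ± 0.24 (SE), with an adjusted p of 0.0162, which rose above 0.05 without MIZ1KO replicate 1 (0.0860) or 3 (0.0510), without Control replicate 2 (0.0514), with the GC and length correction (0.0802), and with the nuclear RNA share as a covariate (0.134). Polrmt, the mitochondrial RNA polymerase, was at 7.09, 12.2 and 14.3 CPM against 6.82, 4.20, 3.67 and 7.02 CPM (1.00 ± 0.39, adjusted p = 0.125). Its elongation factor Tefm (-0.88 ± 0.41) and the termination factor Mterf1a (-1.03 ± 0.49) had negative values and did not pass the test. Nrf1 (-0.04 ± 0.23) and Gabpa (0.19 ± 0.21), which encode factors that bind the motifs searched above, and Tfam (-0.18 ± 0.25), which packages mitochondrial DNA, were named after their values were seen and did not pass the test either. Ppargc1a, which encodes PGC1A, had at most 4 counts in a library and was the list's untested gene.

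The RNAs that the mitochondrial ribosome contains and reads were measured in the same libraries. The rRNAs of its small and large subunits, mt-Rnr1 and mt-Rnr2, had log2 fold changes of -0.60 ± 0.40 (adjusted p = 0.371) and -0.44 ± 0.52 (adjusted p = 0.648), while with a correction for GC content and length the values were 0.37 and 0.54. Both rRNAs were counted in libraries made from polyadenylated RNA. Of the 13 mitochondrial mRNAs 0 were called by edgeR, and the median was 0.10. DESeq2 called 1 higher, the only one with an unadjusted p under 0.05 in edgeR. This was mt-Nd3, a complex I subunit, at 111, 36.7 and 128 CPM in MIZ1KO and at 40.1, 52.3, 48.8 and 40.6 CPM in Control (1.01 ± 0.30, adjusted p = 0.0556). MIZ1KO replicate 2 was the lowest of the 7 libraries, so the groups overlapped. The values were 0.48 ± 0.25 for mt-Co3, 0.19 ± 0.26 for mt-Co2 and 0.14 ± 0.29 for mt-Nd6.

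**Figure D4:**
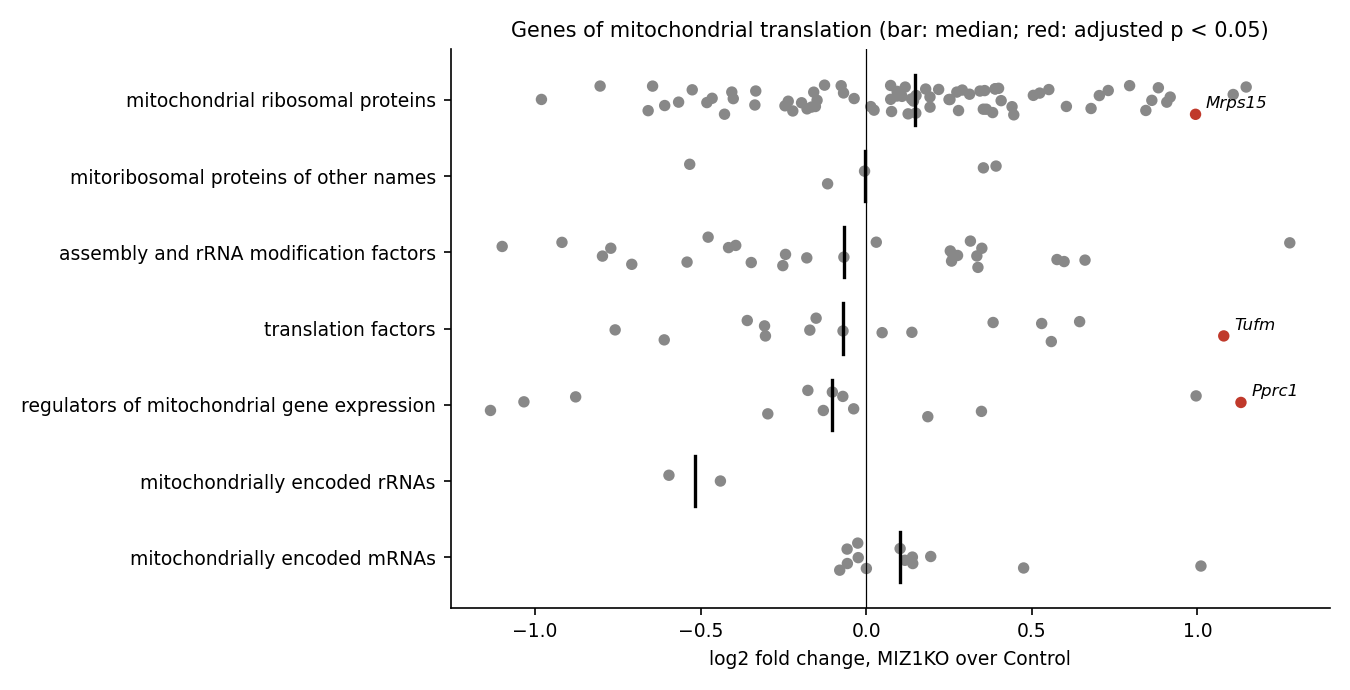
Log2 fold change of MIZ1KO over Control (x axis) for the 78 genes and 6 other lists of mitochondrial translation (rows), with each point a gene, the bar the list's median and red the genes with an adjusted p under 0.05. Medians run from -0.52 for the 2 rRNAs to 0.15 for the 78 genes (-0.57 with the nuclear RNA share as a covariate), and the red points are Mrps15, Tufm and Pprc1.

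The 78 genes are spread over 17 chromosomes, with 11 on chromosome 11 and 8 on chromosome 17. A feature that the choice by symbol did not use was their arrangement. Of the 78, 33 (42.3%) had a protein-coding neighbour on the opposite strand whose start lay within 1000 bp, against 2368 of all 21772 protein-coding genes (10.9%). All 78 passed the filter on low counts, while the 21772 include genes that did not, so the 2 shares are not over like sets. The neighbour was tested in 28 distinct pairs, in 1 of which, Mrps11 and Mrpl46, both genes are members. In these pairs 3 neighbours rose in MIZ1KO and 0 fell by edgeR's test, beside 1.9% and 4.05% of all genes tested (2.08% and 2.06% of protein-coding genes). All 3 were named after their values were seen. Ppp1r10, a phosphatase regulator beside Mrps18b, was at 44.8, 51.7 and 48.9 CPM in MIZ1KO and at 27.3, 21.8, 26.2 and 28.5 CPM in Control (0.90 ± 0.21, adjusted p = 0.0231), while Mrps18b itself had 0.08 ± 0.28. Klc4, beside Mrpl2, was at 2.24 ± 0.48 CPM (SD, n = 3) against 0.301 ± 0.153 CPM (SD, n = 4), with 1 to 26 counts in a library (adjusted p = 0.023). Tmem63b, beside Mrpl14, was at 2.90, 29.4 and 3.06 CPM against 0.918, 0.622, 0.919 and 2.81 CPM (adjusted p = 0.0273), so that its mean rests on MIZ1KO replicate 2. In these pairs the gene of the mitochondrial ribosome did not pass the test. Hira, beside Mrpl40, had 0.62 ± 0.27 (adjusted p = 0.17), and Sars2, beside Mrps12, had 0.17 ± 0.45, both likewise named after their values were seen.

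Principal transcripts of the 78 genes were short, with a median of 1302 bp (418 to 7300 bp) against 3001 bp for all tested protein-coding genes. Median GC content, pooled over all annotated transcripts of a gene, was 50.4% (39.8 to 60.8%) against 49.5%. Across the 78 genes Spearman's rho between GC content and log2 fold change was 0.45, and across 9805 protein-coding genes it was 0.46, a description over genes that share the same 7 libraries and are not independent. The association with GC was thus the same size in this group as in the transcriptome. With a correction for GC content and length the median of the 78 was 0.12, with 50 above 0, and the log2 fold change of Mrps15 was 0.76 (adjusted p = 0.116). By position, 42 of the 78 overlap another annotated gene and 36 do not. Of the processed pseudogenes that carry a member's name, Mrpl23-ps1 reached 156 counts in a library, so reads of Mrpl23 may have been divided between the 2 copies, and those of Mrps36 and Mrpl48 reached no more than 4.42 counts.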

How the data were processed

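Estimated counts per gene in 7 libraries were deposited by the authors, beside log2 values. How these were computed, and whether counting used strand, was not given in the sources used here. STAR 2.5.2, RSEM 1.3.0, DESeq2 1.18.1, R 3.4.3 and GRCm38 are named, with no role, per the submitters' processing notes. Of the count values 6.61% were not whole, and all were rounded, which moved a value by at most 0.5. Groups came from the labels. Genes passing filterByExpr (11618) were fitted with edgeR 4.0.16 (TMM, quasi-likelihood F-test, robust, two-sided, Benjamini-Hochberg over all genes, threshold 0.05) in R 4.3.3, after the script was tested on simulated data. Fold changes are fitted log2 values with their SE, and levels are TMM-scaled CPM. Annotation was GENCODE vM21. The members and lists were chosen with earlier results of these data known. Named genes were members that passed the test, the 6 highest and 6 lowest log2 fold changes, the 5 highest and 3 lowest levels per kb, 7 with a role unlike their name or a further role, and the 4 smallest p of each other list. Others are marked where named. Alternatives were DESeq2 1.42.0 and its size factors, limma 3.58.1 (voom and the deposited log2 values), the legacy fit, no filter, protein-coding genes alone, a GC and length correction (mgcv 1.9.3), the nuclear RNA share as a covariate, a replicate block and leaving out each library. No protein sequences were used.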

Additional observations from a re-analysis of the deposited data

Results flagged for a closer look

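Among 49 sets of 4 Control values tested for a value far from the others by Dixon's criterion, 2 were past it, where chance gives about 1 in 20. Mrps30 was at 19.8 CPM in Control replicate 1 and at 8.92, 9.22 and 9.33 CPM in the others, a gap of 0.962 of the range. Tufm was at 15.4 CPM in Control replicate 3 and at 20.6, 20.7 and 21.2 CPM in the others, a gap of 0.903 of the range.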

How the results depend on the processing

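The count of members higher in MIZ1KO, 1 as reported, was 4 by DESeq2 and 0 by limma-voom, the legacy fit, protein-coding genes alone, the GC and length correction and the nuclear RNA covariate. It ran from 0 to 7 when each library was left out in turn. The count lower was 0 in every alternative. The median log2 fold change moved beyond the spread of the Control libraries in 1 alternative, the nuclear RNA covariate (-0.57), under which 9 genes in all were called higher and 48 lower, and ran from 0.05 to 0.37 with each library left out in turn. That covariate turned the sign of Mrpl12 (-0.045), Mrpl52 (-0.77), Mrps21 (-1.08), Mrpl18 (-1.07), Mrpl42 (-1.29), Mrps5 (-0.17), Mrps30 (-0.56), Mrps18b (-0.72), Mrps36 (-0.83), Mrpl58 (-0.83), Gadd45gip1 (-0.65), Ptcd3 (0.43), Gfm2 (0.86), Mterf1a (0.059) and mt-Rnr2 (0.30). The GC and length correction turned Mrps18b (-2.3e-05), Mrpl58 (-0.088), Ptcd3 (0.23), mt-Rnr1 (0.37) and mt-Rnr2 (0.54), and the calls of Tufm (adjusted p = 0.0746) and Pprc1 (0.0802) were lost under it. The cause of these shifts was not tested. Leaving out a library took Mrps21 from -0.11 to 0.35, Mrpl18 from -0.062 to 0.33, Mrpl42 from -0.19 to 0.37, Mrps17 from -0.24 to 0.0012, Mrpl58 from -0.022 to 0.26, Ptcd3 from -0.22 to 0.050 and mt-Nd6 from -0.032 to 0.40. Libraries share only a replicate number: the correlations of same-numbered deviations were 0.02, 0.07 and 0.16, and the fit with the replicate block, which leaves out Control replicate 4, called 218 genes higher, 337 lower and 1 member, against 56, 86 and 0 in the same 6 libraries without the block and 221, 471 and 1 in all 7, with Mrps17 at 0.0013 and Mrpl58 at -0.042. Members' standard errors of 0.21 to 0.53 on the log2 scale cover counting error and the spread between libraries together, and changes of 1.15 ± 0.36 (Mrps11) and 1.11 ± 0.37 (Mrpl2) missed the threshold.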
